A study of Mus musculus with 40 samples.

Results

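C6, D5 and D2 are 3 of 20 immortalised cell lines made from brown fat of C57BL/6 mice, and they gave 6 of the 40 libraries of messenger RNA in the series, 1 per line before and 1 per line after differentiation. C6 and D5 were chosen on their weak adipocyte response in these same libraries, and D2 was chosen because its profile resembles theirs. The other 17 lines, with 34 libraries, served as the comparison. All 20 lines were kept in the same medium with glucose, pyruvate and serum at passage 6-12, as brown preadipocytes without any agent for the undifferentiated libraries. For the day 8 libraries every line received insulin, T3, indomethacin, dexamethasone and IBMX to start differentiation and was harvested after 8 days, with T3 and insulin kept in the changes of medium. The labels name no transgene, deletion or treatment that some lines carry and others lack. Lines are named A2, C6 and so on, and the labels do not state what the letters A to D mean, how the lines were immortalised, whether a line is 1 clone, or whether lines come from separate animals. Differences between lines therefore measure the spread between these cultures.

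Brown adipocytes arise from fibroblast-like preadipocytes when the nuclear receptor PPARγ and C/EBP transcription factors turn on genes for lipid storage, fatty acid oxidation and, after stimulation, heat production through the uncoupling protein UCP1. Wnt, TGF-β and hedgehog signals are known to restrain that conversion in cultured preadipocytes. Homeobox genes of the Hox clusters and other patterning factors such as Zic1, Tbx5 and Alx4 are set along the body axis in the embryo, and cultured mesenchymal cells keep much of this positional expression.

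Total counts on genes ranged from 19535806 to 28074918 per undifferentiated library and from 27181830 to 43113838 per day 8 library, and the 3 lines lay inside these ranges at 21944920 to 24593059 and 35459309 to 36651744. At 0 counts a level of up to 3 counts cannot be told from absence, which was 0.122 to 0.137 CPM (counts scaled to a common library size) in their undifferentiated and 0.0819 to 0.0846 CPM in their day 8 libraries, for counting error only. Day 8 reads aligned to several places made up 11% in C6, 11.7% in D5 and 11.9% in D2, against 11.7% to 14.8% in the 17 lines. The part of that share in the results was not tested. The day 8 files were counted in another way than the undifferentiated files, so a stage difference of 1 line cannot be told apart from the counting. The difference between lines in that change is not touched by a shift common to all lines.

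By the correlation of their profiles, C6 and D5 were the most alike pair of lines at both stages, and at both stages D2 correlated with them more than nearly all of the 17 lines did. Over 15807 genes, the log2 CPM of C6 and D5, taken as deviations from the mean of the 20 lines, correlated at 0.805 undifferentiated, 0.876 on day 8 and 0.815 for the change between the stages, the highest of 190 pairs each time. These values are descriptions across genes, which are not independent replicates, and D2 was picked on this likeness. D2 correlated with C6 at 0.467 undifferentiated, 0.498 on day 8 and 0.277 for the change, and with D5 at 0.464, 0.584 and 0.35. For the change, A3 and C5 correlated with C6 at 0.484 and 0.437 and with D5 at 0.51 and 0.44, above D2 in each case. The 51 pairs of 1 of the 3 lines with 1 of the 17 lines had a median of −0.131 undifferentiated and −0.348 on day 8. The ranges of these pairs reached 0.208 undifferentiated, between C6 and line D3, and 0.565 on day 8, between C6 and line C5. On day 8, C6 therefore correlated more with C5, at 0.565, and with A3, at 0.525, than with D2. C6 and D5 were not the same library under a pair of names, because the median chi-square per gene between their counts was 1.65 undifferentiated and 3.24 on day 8, where counting noise alone gives 0.455. By this distance, which unlike the correlation is not centred on the mean of the lines, C6 and D5 were the 5th closest of 190 pairs undifferentiated and the 6th on day 8. D2 ranked 87th and 101st with C6 and 56th and 70th with D5, so the likeness of D2 to both was seen in the correlation and not in this distance. Because they are so alike, C6 and D5 may not vary independently, and results shared by both may amount to a single independent observation.

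**Figure D1:**
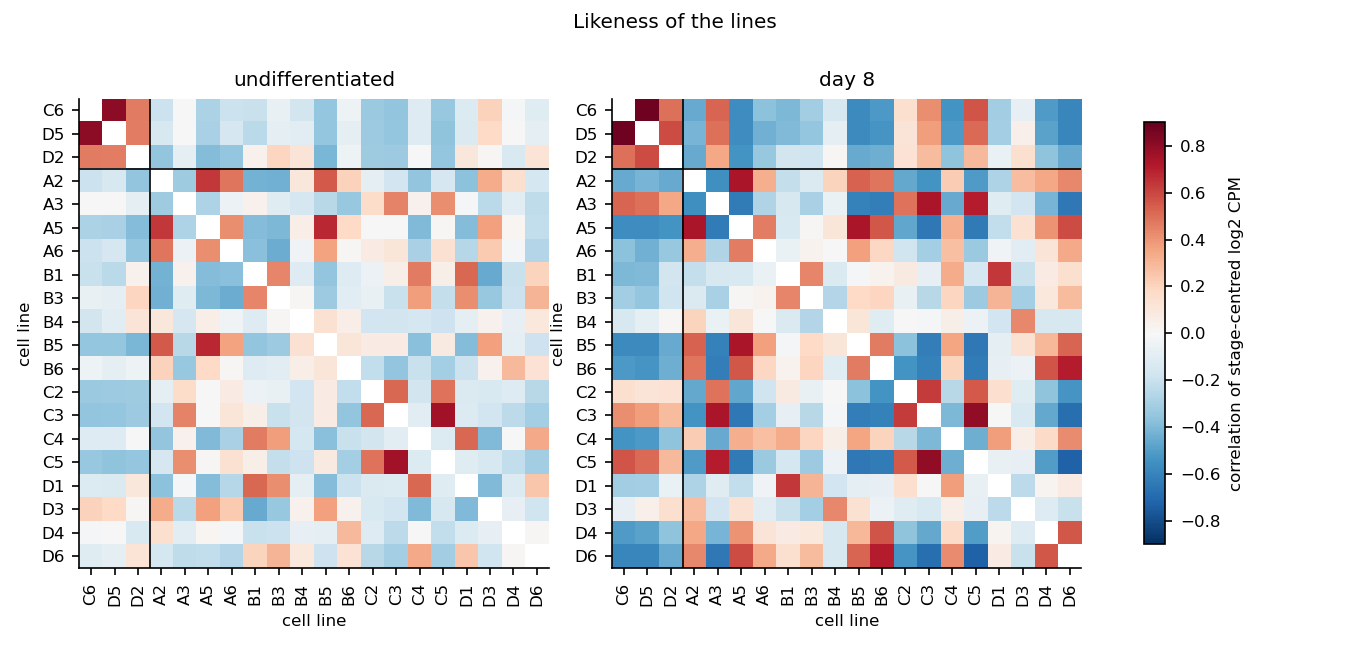
Likeness of the 20 lines undifferentiated and on day 8, as the correlation over 15807 genes of log2 CPM deviations from the stage mean; each cell is 1 pair of lines, and the colour gives the correlation. C6 and D5 form the strongest pair at both stages (0.805 and 0.876). D2 correlates with C6 at 0.467 and 0.498 and with D5 at 0.464 and 0.584. On day 8 C5 and A3 correlate with C6 (0.565 and 0.525) more than D2 does.

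On day 8, C6 held little of the adipocyte programme, D5 held part of it, and D2 held it at levels within the range of the 17 lines. The mean log2 change from undifferentiated to day 8 over a list of 24 adipocyte genes was 3.71 in C6 and 6.68 in D5, the 2 lowest of the 20 lines, and 8.35 in D2, the 7th lowest, where the highest line, B1, had 9.49. The next lines above D5 were A3 at 7.88 and D4 at 7.95. These values chose C6 and D5 and are given without a test. In bulk cultures, fewer converted cells and less RNA per converted cell cannot be told apart. For 19 thermogenic genes the mean log2 change was 0.70 in C6, 1.66 in D5 and 3.86 in D2, which ranked 12th, and it was 2.34 in A3 and 5.47 in the highest line, B6. For 27 nuclear genes of the respiratory chain it was 0.06 in C6, 0.49 in D5 and 1.35 in D2, which ranked 9th, against 0.60 in A3, 0.65 in C5 and 2.27 in B6.

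**Figure D2:**
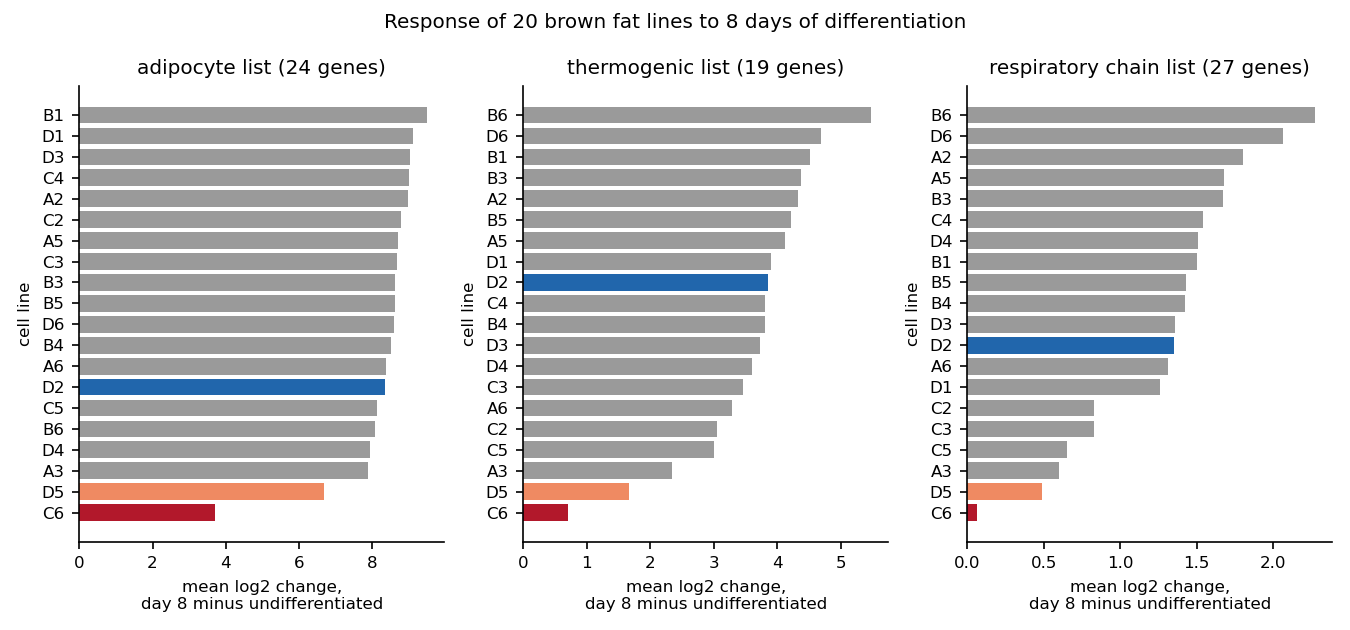
Mean log2 change from undifferentiated to day 8 of the adipocyte, thermogenic and respiratory chain lists in each of the 20 lines. Each bar is 1 line. C6 and D5 are the 2 lowest lines in all 3 lists, whereas D2 lies among the other lines at 8.35, 3.86 and 1.35.

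Adiponectin (Adipoq), the adipocyte hormone, was at 15.3 CPM in C6, 217 in D5 and 810 in D2 on day 8, and at 523 to 1262 CPM, median 880, in the 17 lines. Pparg, the receptor that drives adipocyte conversion, was at 20.6 CPM in C6, 89.8 in D5 and 309 in D2, against 216 to 711 CPM, median 479. Before induction Pparg had been at 28.5, 28.7 and 20.6 CPM in C6, D5 and D2, within the 9.75 to 163 CPM of the 17 lines. The Pparg level of C6 was thus not higher on day 8 than before, a stage difference that cannot be told apart from the counting. D2 lay inside the range of the 17 lines for both genes on day 8. Fabp4, the adipocyte fatty acid carrier, was at 42.3, 382 and 1086 CPM against 727 to 1719 CPM on day 8. Glycerol-3-phosphate dehydrogenase, Gpd1, was at 24.4, 760 and 2060 CPM against 778 to 2480 CPM. The same order, C6 below D5 below D2, with D2 inside the range of the 17 lines, was seen for the lipid droplet protein Plin1 at 9.8, 111 and 341 CPM against 233 to 668 CPM. The secreted protease Cfd followed it at 8.07, 77.8 and 334 CPM against 252 to 1560 CPM. Some lipogenic transcript was already present without induction in all lines: the desaturase Scd1 was at 347, 336 and 315 CPM in undifferentiated C6, D5 and D2 against 178 to 323 CPM, and at 391, 1439 and 8136 CPM on day 8 against 4415 to 12342 CPM.

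Set against the range of the 17 lines on day 8, 24 of 24 adipocyte genes lay below it in C6, 20 in D5 and 1 in D2. The 1 gene in D2 was Dgat2, which makes triglyceride, at 299 CPM against a lowest value of 301 CPM in line C3. Of the 27 respiratory chain genes, 27 lay below the range in C6, 21 in D5 and 0 in D2. Of 19 genes of fatty acid oxidation the numbers were 16, 12 and 0, and of 19 thermogenic genes 10, 8 and 0. Over all 15807 genes, 21.1% lay below the range in C6, 17.7% in D5 and 4.57% in D2. Most adipocyte, respiratory chain and fatty acid oxidation genes of C6 and D5 thus lay below the range, whereas 11 of the 19 thermogenic genes of D5 lay within it. Before induction D2 had 13 of the 27 respiratory chain genes below the range, more than the 6 of C6 and 4 of D5. Of all genes 8.81% lay below it in D2, 11.4% in C6 and 10.1% in D5. Cox4i1, a subunit of cytochrome c oxidase, shows this order at 196 CPM in C6, 207 in D5 and 187 in D2 against 206 to 310 CPM undifferentiated, and at 218, 294 and 459 CPM against 385 to 887 CPM on day 8.

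**Figure D3:**
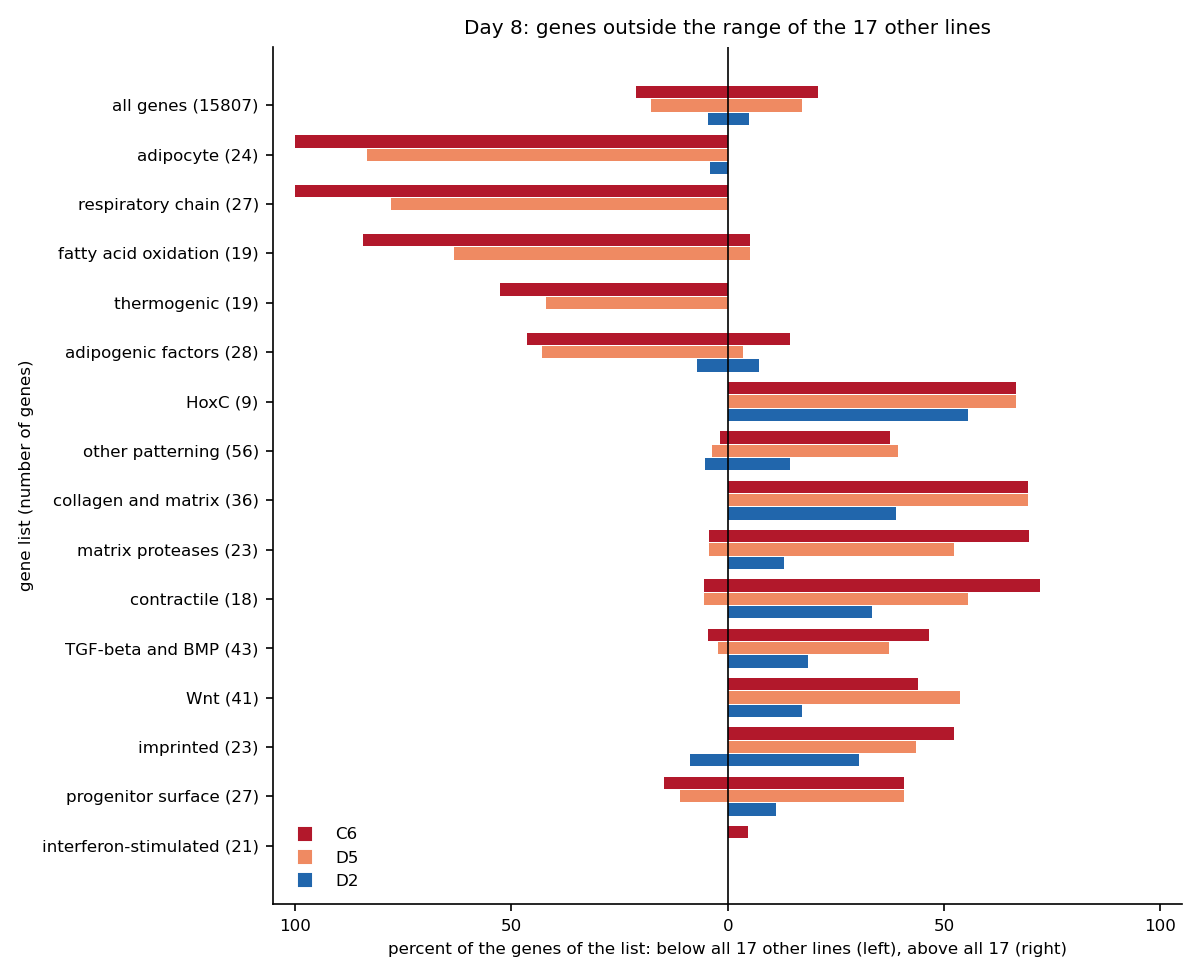
Share of each gene list that lay below or above the range of the 17 lines on day 8, for C6, D5 and D2. For adipocyte, respiratory chain and fatty acid oxidation genes the shares below the range are high in C6 and D5 and near 0 in D2, whereas for HoxC and matrix genes all 3 lines have large shares above the range. Of all genes 20.9%, 17.2% and 4.88% lie above it in C6, D5 and D2.

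Between the 3 lines and the 17 lines on day 8, 1973 of 15502 tested genes (12.7%) were called higher and 1971 (12.7%) lower. A call is an adjusted value under 0.05 in edgeR, used here only to say how far apart the groups lie, because the lines were picked on these libraries. All 3 lines lay above all 17 lines for 551 of the tested genes (3.55%) and below all 17 for 346 (2.23%), whether called or not. The calls rest on C6 and D5 together. Without C6, 422 genes were called higher and 90 lower, without D5 606 and 165, and without D2 2305 and 2675. Of the adipocyte list, 0 of 24 genes were called higher and 10 lower, with a median log2 difference of −1.54 against −0.04 for all genes. The respiratory chain had 18 of 27 lower with a median of −0.83, and fatty acid oxidation 10 of 19 lower and 1 higher with a median of −0.94. The thermogenic list had 0 calls of 18 either way with a median of −1.11, and the adipogenic transcription factors had 8 of 28 lower and 1 higher.

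Among the called genes of these lists, Pparg had a log2 difference of −1.73 (SE 0.49, n = 3 and 17) on day 8, Cfd −2.42 (SE 0.73) and the lipid droplet protein Cidec −1.99 (SE 0.65). Klf15, a transcription factor of late adipocyte conversion, was at 22.4 CPM in C6, 33.7 in D5 and 73.3 in D2 against 57.6 to 245 CPM, with a log2 difference of −1.77 (SE 0.42). None of these 4 calls held without C6 or without D5, and DESeq2 did not call Pparg. The log2 differences without C6 were −1.21 for Pparg, −1.85 for Cfd, −1.41 for Cidec and −1.44 for Klf15. Acadm, an acyl-CoA dehydrogenase of fatty acid oxidation, was at 73.9, 188 and 349 CPM against 200 to 851 CPM, with a log2 difference of −1.40 (SE 0.41) that was not called without C6, at −0.98, or without D5, at −1.33. Sdha, the catalytic subunit of succinate dehydrogenase, was at 267, 363 and 550 CPM against 424 to 1442 CPM, and its call was lost without C6, at −0.89, and without D5, at −1.05, against −1.12 (SE 0.33). Cpt1a, the liver-type carnitine palmitoyltransferase that admits fatty acids to mitochondria, went the other way at 125, 95.2 and 81.1 CPM against 15.8 to 93.8 CPM. Its log2 difference was 1.25 (SE 0.41), and it was not called without C6, at 1.08, or without D5, at 1.29. Adipoq was not called, at a log2 difference of −1.31 (SE 0.57). Ucp1 was also not called, at 0 CPM in C6, 0.0533 in D5 and 2.02 in D2 against 0.0816 to 52.3 CPM, so it was barely detected in C6 and D5 and within the range of the 17 lines in D2.

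The largest called differences towards lower levels on day 8, with all 3 lines below all 17, included those of lipid-handling genes and a mitochondrial enzyme. Ces1d, a carboxylesterase of lipid droplets, was at 0.514 CPM in C6, 2.02 in D5 and 4.62 in D2 against 13 to 101 CPM, with a log2 difference of −4.13 (SE 0.79). Apoc3, an apolipoprotein, was at 0.433, 1.86 and 4.95 CPM against 8.38 to 126 CPM, and its log2 difference of −4.11 (SE 0.96) was not called without C6, at −3.60, or without D5, at −3.94. Maob, a mitochondrial monoamine oxidase, was at 2.06, 2.9 and 2.82 CPM against 4.86 to 77 CPM, with a log2 difference of −3.96 (SE 0.66). For Maob the 3 lines were alike, unlike for Ces1d and Apoc3, where C6 was lowest. Hoxd8 was the homeobox gene among these 10, at 2.55, 1.57 and 1.13 CPM against 4.36 to 26 CPM, with a log2 difference of −2.93 (SE 0.53). The calls of Ces1d, Maob, Hoxd8, Sec14l4 and AK080070 also held without each of the 3 lines.

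Single patterning, signalling and matrix genes were higher in all 3 lines than in the 17, but over whole lists D2 was not always next to C6 and D5. The mean day 8 log2 CPM of the Wnt list was 3.77 in C6, 3.76 in D5 and 2.75 in D2, against 3.06 in C5, 2.97 in A3 and 2.78 in C3. For patterning genes outside the Hox clusters it was 2.72, 2.42 and 1.76 against 2.38, 1.98 and 1.92 in the same lines, and for proteases and their inhibitors 6.45, 6.33 and 5.87 against 6.17, 6.07 and 6.03. D2 was thus below C5, A3 and C3 in each of these 3 lists. For collagen and matrix genes D2, at 8.58, was above C5 at 8.36, A3 at 8.23 and C3 at 8.07. The 5 marker genes given with the lines are described first, at both stages. Eng (endoglin), a co-receptor for TGF-β family ligands, was at 220 CPM in C6, 302 in D5 and 72.5 in D2 before induction, against 1.12 to 109 CPM, median 1.68, in the 17 lines. On day 8 Eng was at 238, 255 and 68.1 CPM against 0.557 to 41.4 CPM. The 3 lines lay above all 17 on day 8, whereas before induction line B4, at 109 CPM, lay above D2. Tbx5, a T-box factor of the forelimb field and the heart, was at 19.3, 16.3 and 23.1 CPM undifferentiated against 0 to 9.06 CPM, median 0.0487. On day 8 Tbx5 was at 21.5, 20.7 and 11.9 CPM against 0 to 3.27 CPM. Tbx5 thus set all 3 lines apart at both stages, with little or no transcript in most of the 17.

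Hoxc8 was at 48.8 CPM in C6, 38.4 in D5 and 16.2 in D2 undifferentiated against 0 to 20.1 CPM, median 4.44, and at 54.9, 65.2 and 19.8 CPM on day 8 against 0.326 to 14.6 CPM. Line D3, at 20.1 CPM, exceeded D2 undifferentiated, and no line of the 17 exceeded it on day 8. Hoxc10 was at 14.9, 15.3 and 9.22 CPM undifferentiated against 0.204 to 6.86 CPM, and at 22.4, 16.1 and 8.3 CPM on day 8 against 0.789 to 9.54 CPM. Here line C5, at 9.54 CPM, exceeded D2 on day 8. Zic1, a zinc finger factor often used as a brown fat marker, was at 56.5, 55.4 and 15.8 CPM undifferentiated against 0.0396 to 61.3 CPM, median 32.4. On day 8 it was at 65.9, 62.3 and 27.6 CPM against 0.163 to 40.6 CPM. Zic1 therefore did not set the 3 lines apart before induction, and D2 was below the median of the 17 lines there and inside their range on day 8. The log2 difference of Zic1 was 0.76 (SE 1.26) undifferentiated and 1.37 (SE 1.02) on day 8, and neither was called.

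**Figure D4:**
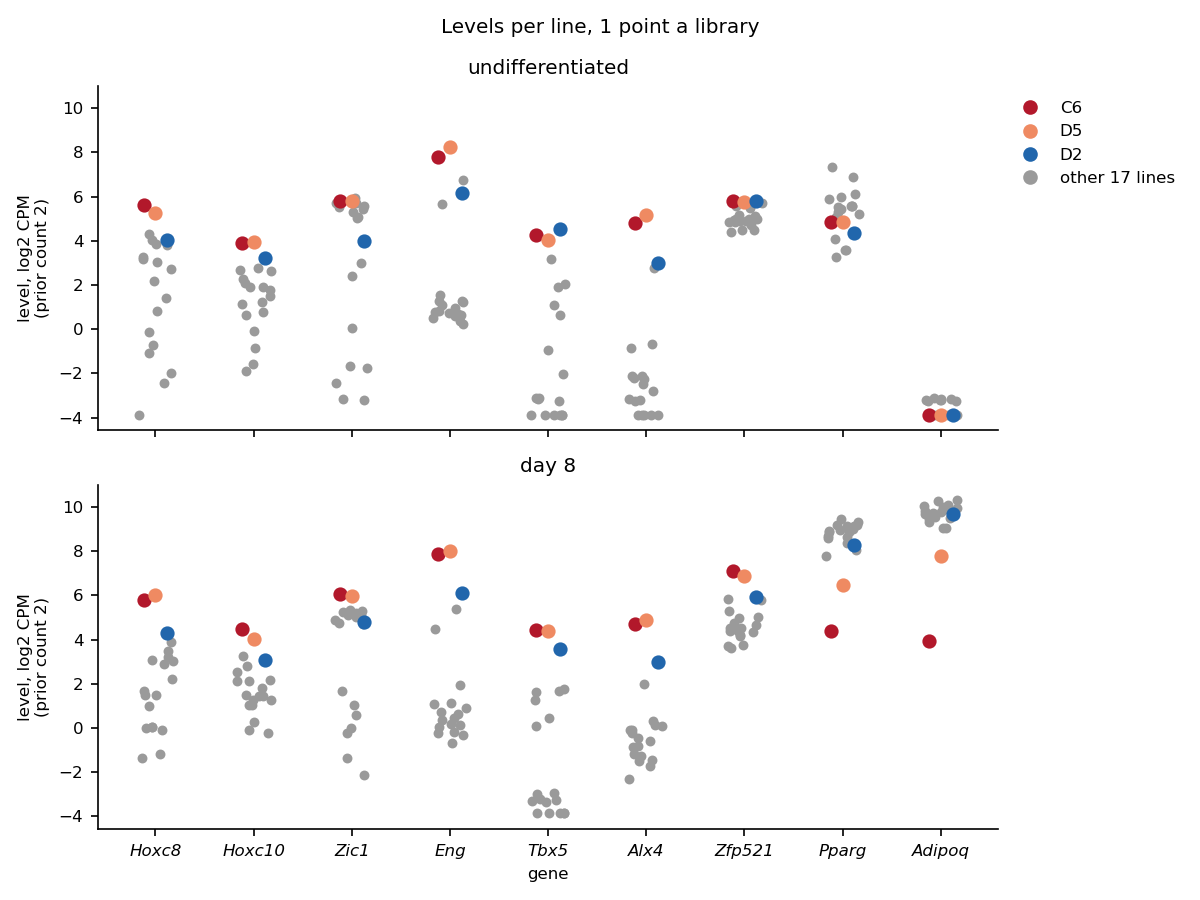
CPM on a log axis of the 5 marker genes and of adipocyte and other genes in every line, undifferentiated and on day 8; each point is 1 line, with C6, D5 and D2 coloured. Eng and Tbx5 separate the 3 lines from the others on day 8, Zic1 of D2 lies inside the range of the 17 lines at both stages, and the adipocyte genes place D2 with the 17 lines.

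Undifferentiated, 1004 of 14183 tested genes (7.08%) were called higher in the 3 lines and 1073 (7.57%) lower, and all 3 lines lay beyond all 17 for 410 (2.89%) and 436 (3.07%) of the tested genes. Without C6 the numbers called were 230 higher and 188 lower, without D5 357 and 253, and without D2 964 and 1039. Among patterning genes outside the Hox clusters, 9 of 50 were called higher and 0 lower. They were Tbx3, Tbx5, Meox1, En1, En2, Lmx1b, Six4, Alx4 and Nkx3-2. Of the 9 HoxC genes tested, Hoxc10 alone was called, with a log2 difference of 2.11 (SE 0.60), although the median of the 9 was 1.11. Hoxc10 was not called without C6, at 2.02, or without D5, at 2.00, and the same held for Eng, whose log2 difference of 4.17 (SE 1.06) was 4.09 and 3.73. Tbx5, at 3.94 (SE 1.16), was not called without any 1 of the 3 lines, at 3.81 to 4.06. Hoxc8, at 2.42 (SE 0.94), was not called. HoxD genes went the other way with 2 of 4 called lower, among them Hoxd8 at 1.7, 1.49 and 2 CPM in C6, D5 and D2 against 1.12 to 17.1 CPM, a call lost without C6, at −2.16, and without D5, at −2.07.

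Alx4, a homeobox factor of limb and skull patterning, was at 28.4 CPM in C6, 36.1 in D5 and 7.9 in D2 undifferentiated against 0 to 6.76 CPM, median 0.0769, with a log2 difference of 5.55 (SE 1.04). Vat1l, a protein related to a synaptic vesicle membrane protein, had the largest called difference, 6.67 (SE 0.95), at 21.2, 4.93 and 15.3 CPM against 0 to 1.97 CPM. The LIM-domain protein Pdlim4 was at 62.8, 55.7 and 16.1 CPM against 0 to 9.74 CPM. Fibrillin-2, Fbn2, a microfibril protein of embryonic matrix, was at 98.3, 55.3 and 20.9 CPM against 0.0367 to 11.1 CPM. In all 4 genes line D3 was the highest of the 17 lines, and D3 was also the line of the 17 with the highest likeness to C6 and D5 undifferentiated. Dkk3, a secreted relative of Wnt antagonists, was at 139, 125 and 36.3 CPM against 0.184 to 19.4 CPM, again with D3 highest. The calls of all 10 leading higher genes, of which these are 5, held without C6 and without D5.

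Of 39 TGF-β and BMP genes 5 were called higher and 1 lower undifferentiated, and of 38 Wnt genes 5 higher and 1 lower, where 7.08% of all tested genes were called higher and 7.57% lower. Acvrl1, the type I receptor that works with endoglin, was at 32.4 CPM in C6, 25.3 in D5 and 35.2 in D2 against 1.45 to 13.5 CPM, with a log2 difference of 2.43 (SE 0.44). Inhbb, the activin βB subunit, was at 274, 170 and 179 CPM against 13.1 to 169 CPM. Ltbp2, a matrix protein of the latent TGF-β binding family, was at 559, 370 and 192 CPM against 2.87 to 165 CPM. D2 was the highest of the 3 lines for Acvrl1 and the lowest for Ltbp2, and none of the 3 lines overlapped the 17 for these genes. The Inhbb call was lost without C6, at 2.09 against 2.34 (SE 0.51), and the Ltbp2 call without C6, at 2.29, and without D5, at 2.71, against 2.70 (SE 0.71).

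Of the adipogenic transcription factors 4 of 26 were called higher undifferentiated and 0 lower, against 7.08% and 7.57% of all tested genes. Zfp467, a zinc finger factor that promotes adipocyte fate, had a log2 difference of 1.73, and Zfp521, which restrains it, one of 0.77. Zfp521 was at 55.4 CPM in C6, 54.4 in D5 and 56.2 in D2 against 21.1 to 52 CPM, its call being lost without C6, at 0.78, and without D5, at 0.79. On day 8 Zfp521 was at 137, 118 and 61 CPM against 12.1 to 56.4 CPM, with a log2 difference of 2.00 (SE 0.34) that was called without each of the 3 lines. The gene was thus at the same level in the 3 lines before induction, and on day 8 it was higher in C6 and D5 than in D2. The median of the 17 lines was 30.5 CPM undifferentiated and 22.5 CPM on day 8. Such stage differences cannot be told apart from the counting.

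Of 29 cell cycle genes 2 were called higher, close to the 7.08% of all tested genes, and 6 lower, where 7.57% of all were, in undifferentiated cells. Mcm5, of the replicative helicase, was at 307 CPM in C6, 306 in D5 and 301 in D2 against 358 to 619 CPM, with a log2 difference of −0.62 (SE 0.14) that was also −0.62 without C6, where it was not called. Mcm2, of the same helicase, was at 327, 312 and 373 CPM against 398 to 554 CPM. A pair of inhibitors of cyclin-dependent kinases from the same locus were higher: Cdkn2b was at 40.9, 32.9 and 38.6 CPM against 7.2 to 26.9 CPM, and Cdkn2a at 137, 108 and 112 CPM against 60.7 to 106 CPM. The 3 lines lay beyond all 17 for these 4 genes. The Cdkn2a call was lost without C6, at 0.53 against 0.63 (SE 0.15).

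Sprr1a, Mtap2 and Sema3f had the largest called differences towards lower levels undifferentiated. They were chosen among genes with all 3 lines below all 17 and at least 5 CPM in the higher group. Sprr1a, a precursor of the cornified envelope, was at 6.98 CPM in C6, 6.96 in D5 and 2.97 in D2 against 17.4 to 144 CPM, with a log2 difference of −3.66 (SE 0.59). Mtap2, a microtubule-associated protein, was at 5.55, 2.67 and 2.12 CPM against 11.1 to 53.3 CPM. Sema3f, a secreted guidance ligand, was at 3.09, 3.75 and 3.65 CPM against 8.6 to 59.3 CPM.

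C6 and D5 were also tested without D2 in the undifferentiated libraries, the only comparison with printed adjusted p-values. These 2 lines were picked on the change of the adipocyte list between the stages. Undifferentiated values of that list thus entered the choice, and its genes get no p-value here. Earlier results of these libraries were known when the lines were picked, and with 2 such alike lines the p-values may be too small. Of 14427 genes, 964 (6.68%) were called higher and 1039 (7.2%) lower, and C6 and D5 both lay above all 17 lines for 1261 (8.74%) and below all 17 for 1164 (8.07%). With only D5 the numbers called were 100 higher and 64 lower, and with only C6 to 222 and 169, where the lone line is assumed to vary like the others. Megf6, an EGF-repeat protein, was at 13.4 CPM in C6 and 10.8 in D5 against 0 to 1.34 CPM, with a log2 difference of 5.76 (SE 0.76, adjusted p = 0.000108, edgeR quasi-likelihood test). Alx4 differed by 5.97 (SE 1.13, adjusted p = 0.00192 in edgeR) and Fbn2 by 5.25 (SE 0.86, adjusted p = 0.000675 in edgeR). Dkk3 differed by 4.9 (SE 0.83, adjusted p = 0.000785 in edgeR) and Pdlim4 by 5.52 (SE 0.93, adjusted p = 0.000773 in edgeR). These 5 calls held with C6 alone and with D5 alone, as did that of Sdhc, a succinate dehydrogenase subunit, at a log2 difference of 0.66 (SE 0.1, adjusted p = 0.000249 in edgeR).

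The 5 markers were given with the lines, whose choice drew on these libraries, so their calls are descriptions and get no p-value here. Among them, the same edgeR test called Eng, at a log2 difference of 4.57 (SE 1.17), and Hoxc10, at 2.32 (SE 0.69). It did not call Tbx5, at 3.81 (SE 1.35), Hoxc8, at 2.77 (SE 1.07), or Zic1, at 1.15 (SE 1.46). Both called markers lost the call with 1 line alone, Eng at 4.78 with D5 and 4.32 with C6, and Hoxc10 at 2.34 and 2.30. Of all tested genes 6.68% were called higher and 7.2% lower, to be set beside the lists that follow. Of patterning genes 7 of 51 were called higher and 1 lower, of Wnt genes 5 of 39 higher and 2 lower, and of TGF-β and BMP genes 5 of 39 higher and 2 lower. The cell cycle list had 1 of 29 higher and 7 lower, among them Mcm2 at −0.54 (SE 0.1, adjusted p = 0.00154 in edgeR), which was not called with 1 line alone, at −0.57 and −0.51. Of 14 adipocyte genes tested, 3 were called higher and 2 lower, as a description only, because this list entered the choice of the lines. Among them were Fasn, the fatty acid synthase, higher at 0.51 (SE 0.13), and Acsl1, an acyl-CoA synthetase, lower at −1.01 (SE 0.22). Without C6 the Acsl1 difference was −0.81 and not called. Before induction C6 and D5 thus had calls in both directions among the adipocyte genes, and Pparg was not called. The summed level of the 24 listed adipocyte genes was 1578 CPM in undifferentiated C6 and 1422 in D5, against 921 to 1424 CPM in the comparison lines. Their mean log2 CPM over the list, 0.01 in C6 and 0.14 in D5, lay between −0.22 in C3 and 1.07 in D4. These list levels were not tested.

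D2 did not follow C6 and D5 in some of the genes called lower there. Selp, the adhesion protein P-selectin, was at 0.397 CPM in C6 and 0.407 in D5 but at 15.1 in D2, against 1.3 to 19.4 CPM, with a log2 difference of −3.97 for C6 and D5 (adjusted p = 0.0367 in edgeR). Tmem171 was at 3.89 and 6.06 CPM but at 21.2 in D2 against 6.56 to 114 CPM. Smpd3, a neutral sphingomyelinase, was at 8.49, 11.2 and 42.6 CPM against 55.3 to 352 CPM, so that D2 lay below all 17 lines here but nearer to them. Of the 839 genes called higher in C6 and D5 with both above all 17 lines, D2 was also above all 17 for 322 (38.4%), within their range for 512 and below it for 5. Of the 892 genes called lower with both below all 17, D2 was below for 340 (38.1%), within for 545 and above for 7. Over all 15807 genes, D2 lay above all 17 lines for 8.58% and below them for 8.81%. D2 was picked for its likeness to C6 and D5, so the larger shares describe that choice.

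On day 8 the leading genes called higher with all 3 lines above all 17 were Gdf10, Dner, Nr1h4, Kif1a, Eng, Igfbp5, Col8a2, Plxnc1, Alx4 and Igdcc4, and each call held without each of the 3 lines. Gdf10, a TGF-β family ligand, was at 15.9 CPM in C6, 45.8 in D5 and 5.92 in D2 against 0 to 1.71 CPM, with a log2 difference of 5.79 (SE 0.78). Igfbp5, an insulin-like growth factor binding protein, was at 618, 725 and 61.6 CPM against 1.93 to 40.9 CPM, with a log2 difference of 5.13 (SE 0.55). Before induction it had been at 2.89, 3.12 and 1.1 CPM. Igdcc4, a cell surface protein of the immunoglobulin superfamily, was at 84.4, 76.5 and 23.7 CPM against 0.57 to 9.46 CPM, with a log2 difference of 4.60 (SE 0.52). For all 3 genes D2 was the lowest of the 3 lines.

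The 250 bases before the start of Eng, Gdf10 and Igdcc4, which were higher in the 3 lines on day 8, are shown beside those of Adipoq, which was low in C6 and D5, because the genes differ in how rich in CG their promoters are. The sequences come from RefSeq on build GRCm38.p6, all on the plus strand, and the capitals mark each CG. The Eng window is chr2:32646345-32646594, the Gdf10 window chr14:33923337-33923586, the Igdcc4 window chr9:65101236-65101485 and the Adipoq window chr16:23146286-23146535.
Eng: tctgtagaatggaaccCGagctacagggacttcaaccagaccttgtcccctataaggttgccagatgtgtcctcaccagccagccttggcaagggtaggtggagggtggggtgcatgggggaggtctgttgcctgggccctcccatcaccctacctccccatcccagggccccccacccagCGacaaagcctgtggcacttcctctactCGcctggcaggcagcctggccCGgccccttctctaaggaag
Gdf10: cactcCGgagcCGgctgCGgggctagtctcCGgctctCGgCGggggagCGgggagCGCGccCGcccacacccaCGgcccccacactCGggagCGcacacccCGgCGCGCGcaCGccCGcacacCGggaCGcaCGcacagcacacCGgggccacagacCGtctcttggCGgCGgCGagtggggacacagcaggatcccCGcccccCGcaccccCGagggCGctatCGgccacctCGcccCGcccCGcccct
Igdcc4: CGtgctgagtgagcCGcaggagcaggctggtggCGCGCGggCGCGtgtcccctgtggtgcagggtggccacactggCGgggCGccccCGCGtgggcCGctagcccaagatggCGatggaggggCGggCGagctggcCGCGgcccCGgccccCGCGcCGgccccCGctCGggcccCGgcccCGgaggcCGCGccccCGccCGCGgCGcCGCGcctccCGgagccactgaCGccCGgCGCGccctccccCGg
Adipoq: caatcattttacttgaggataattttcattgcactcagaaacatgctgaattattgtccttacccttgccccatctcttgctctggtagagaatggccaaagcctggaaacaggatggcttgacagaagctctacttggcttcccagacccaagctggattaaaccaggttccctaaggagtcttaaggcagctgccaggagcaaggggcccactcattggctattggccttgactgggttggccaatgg
These windows hold 4, 35, 39 and 0 CG, and 62.2%, 2.97%, 1.56% and 100% of the 32851 promoter starts in the table hold at least as many. Of the 10 leading higher genes on day 8, 9 had an entry with 10 starts between them and 1 to 39 CG, median 16.5, where all promoters have a median of 6. Of the 10 leading lower genes, 4 had an entry with 5 starts and 4 to 23 CG, median 11. CG content is a description of these windows and no site of a factor.

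Among the homeobox genes on day 8, 5 of 9 HoxC genes were called higher and 0 lower with a median log2 difference of 1.58, and 2 of 5 HoxD genes were called lower. Of all tested genes 12.7% were called higher and 12.7% lower. Hoxc8 differed by 3.36 (SE 0.70) and Hoxc10 by 2.19 (SE 0.48), which without C6 was 1.86 and not called. Hoxc9 was at 19.7 CPM in C6, 19.1 in D5 and 8.24 in D2 against 0.957 to 7.63 CPM, and Hoxc13 at 20.6, 15.8 and 12.4 CPM against 0.934 to 11.1 CPM. The Hoxc9 and Hoxc13 calls were lost without C6, at 1.66 and 1.40, and without D5, at 1.67 and 1.61, against 1.84 and 1.58 with all 3 lines. Set against the range of the 17 lines, 6 of 9 HoxC genes were above it in C6, 6 in D5 and 5 in D2. Of all genes, 20.9% lay above it in C6, 17.2% in D5 and 4.88% in D2. Of 55 other patterning genes, 15 were called higher and 1 lower, among them Meox1, a homeobox factor of the somites, at 7.09, 8.34 and 2.41 CPM against 0.0716 to 1.48 CPM, with a log2 difference of 3.34 (SE 0.46). Tbx5, at 4.4 (SE 1.17), was not called without C6, at 4.28, or without D5, at 4.29.

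Genes of the Wnt and TGF-β pathways followed. Of 42 Wnt genes 19 were called higher and 0 lower on day 8, where 12.7% of all tested genes were called higher, with a median log2 difference of 1.02 against −0.04 for all genes. Sfrp1, a secreted Wnt antagonist, was at 662 CPM in C6, 990 in D5 and 499 in D2 against 15.7 to 147 CPM, with a log2 difference of 3.44 (SE 0.48). Dkk3 was at 265, 184 and 51 CPM against 0.681 to 30.8 CPM, with a log2 difference of 4.47 (SE 0.75). Nkd1, a feedback inhibitor of Wnt signalling, was at 17.7, 13.2 and 3.07 CPM against 0.139 to 2.51 CPM. The antagonists among these genes were higher in all 3 lines than in all 17, and D2 was lowest of the 3 for each. Of 43 TGF-β and BMP genes 15 were called higher and 0 lower. Bmp6, a BMP ligand, was at 28.3, 23.7 and 8.94 CPM against 0.422 to 10.3 CPM, so D2 was inside the range of the 17 lines. Its log2 difference of 2.79 (SE 0.67) was not called without C6, at 2.5, or without D5, at 2.67.

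Of 30 hedgehog, Notch and FGF genes 6 were called higher and 3 lower on day 8, near the 12.7% each way of all tested genes, so the list as a whole is no result and only single genes are given. Gli2, a transcription factor of the hedgehog pathway, was at 32.5 CPM in C6, 35.7 in D5 and 14.3 in D2 against 0.342 to 10.4 CPM, with a log2 difference of 2.57 (SE 0.55). Gli1, whose level follows hedgehog activity, was at 1.65, 14.7 and 0.47 CPM against 0 to 0.522 CPM. Its log2 difference of 4.81 (SE 0.65) rested on D5 and was 2.40 and not called without it. Gli1 thus separates D5 from the other two, whereas Gli2 is shared by all 3 lines.

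Matrix and contractile genes made the other large group on day 8. Of 36 collagen and matrix genes 20 were called higher and 0 lower, with a median log2 difference of 1.36, where 12.7% of all tested genes were called higher. Of the 36, 25, 25 and 14 lay above the range of the 17 lines in C6, D5 and D2, against 20.9%, 17.2% and 4.88% of all genes. Col1a1, the main fibrillar collagen chain, was at 6423, 5152 and 3075 CPM against 359 to 3128 CPM. Col14a1, a collagen that binds fibril surfaces, was at 93.1, 113 and 21.8 CPM against 0.778 to 16.7 CPM, with a log2 difference of 4.36 (SE 0.61). Fbn2 was at 157, 94.3 and 42.9 CPM against 0.714 to 27.7 CPM. Col1a1 of D2 fell just inside the range of the 17 lines, and Col14a1 and Fbn2 of D2 just above it. Of 22 proteases and inhibitors tested 8 were called higher and 0 lower. Of 17 contractile genes 11 were called higher and 0 lower, with a median of 1.14. Myl9, a myosin light chain, was at 159, 155 and 96 CPM against 25.1 to 83.8 CPM. Tagln (transgelin), an actin-binding protein, was at 344, 231 and 217 CPM against 5.42 to 250 CPM, and its log2 difference of 1.96 (SE 0.61) was not called without C6, at 1.75, or without D5, at 2.05.

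Of 27 progenitor surface genes 9 were called higher and 2 lower on day 8, with a median log2 difference of 0.93, where 12.7% of all tested genes were called each way. Pdgfra, a growth factor receptor of mesenchymal progenitors, was at 688 CPM in C6, 734 in D5 and 372 in D2 against 39.2 to 421 CPM on day 8 and at 135, 192 and 171 CPM against 2.12 to 215 CPM undifferentiated. C6 and D5 were thus above all 17 lines on day 8, and D2 was inside their range at both stages. Of 22 imprinted genes 6 were called higher and 0 lower, namely H19, Igf2, Mest, Plagl1, Ndn and Impact, where undifferentiated 0 of 21 were called either way. Mest, a paternally expressed gene tied to growth of fat tissue, was at 237, 613 and 151 CPM against 6.7 to 88.4 CPM, with a log2 difference of 3.83 (SE 0.58). Igf2, the growth factor, was at 45, 124 and 11.5 CPM against 0.626 to 24.4 CPM, and its log2 difference of 3.14 (SE 0.68) was 2.05 and not called without D5. H19, the noncoding RNA next to it, was at 8.18, 6.02 and 2.41 CPM against 0 to 1.5 CPM, and its call was lost without C6, at 3.5 against 3.87 (SE 0.85). For interferon response genes 0 of 21 were called either way on day 8, with a median of 0.54.

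Between stages the lists of called genes overlapped in part. The 3 lines were called higher at both stages for 451 genes, which are 44.9% of the undifferentiated and 22.9% of the day 8 list. They were called lower at both for 422 genes, 39.3% and 21.4%. Of all tested genes 7.08% were called higher and 7.57% lower undifferentiated, and 12.7% each way on day 8. Among genes called higher undifferentiated, 26 were called lower on day 8, and among those called lower, 7 were called higher. All 3 lines lay above all 17 at both stages for 98 genes and below at both for 48. Over the tested genes of each stage, the shares above were 2.89% undifferentiated and 3.55% on day 8, and those below 3.07% and 2.23%. The stages come from the same lines and are not independent.

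The change from undifferentiated to day 8 within each line was then compared, with the line as a block, which pairs the libraries of a line. Of 15807 genes, 767 (4.85%) had a higher change in the 3 lines and 1048 (6.63%) a lower one, and the changes of all 3 lines lay above those of all 17 for 245 (1.55%) and below for 319 (2.02%). These calls depended on C6 and D5 being both present, with 1 higher and 8 lower without C6, 2 and 17 without D5, and 1158 and 1520 without D2. Without the block, 194 genes were called higher and 389 lower. Of all the named genes, Cd34 alone kept its call without C6 and without D5. Cd34, a surface protein of adipose progenitors, was at 16.4 CPM in C6, 14.7 in D5 and 8.33 in D2 undifferentiated against 1.22 to 452 CPM, and at 211, 170 and 43.9 CPM on day 8 against 0.477 to 286 CPM. Its log2 change was 3.68, 3.53 and 2.39 in the 3 lines and −2.26 to −0.11 in the 17 lines. The sign of the change within a line cannot be told apart from the counting, so only the gap between the groups is read. The difference of the changes was 4.22 (SE 0.40), and 3.97 without C6 and 4.06 without D5. Without the block it was 4.10 and not called.

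**Figure D5:**
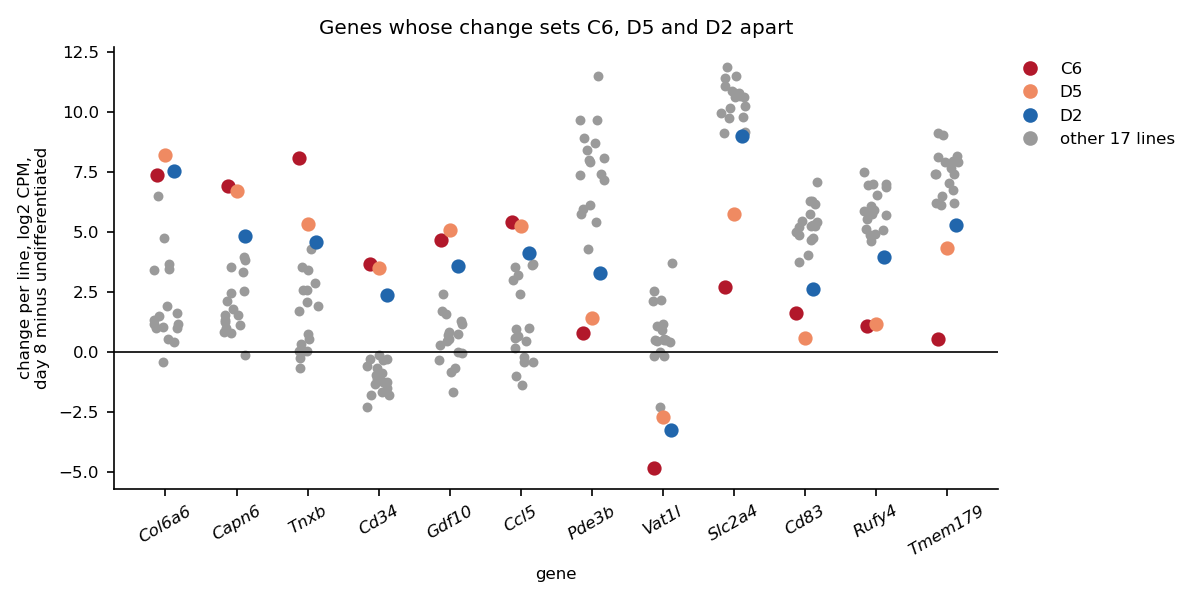
Log2 change from undifferentiated to day 8 in each line for genes with a differing change; each point is 1 line, with C6, D5 and D2 coloured. Cd34 is above 0 in the 3 lines and below 0 in all 17, but the sign within a line cannot be told apart from the counting. Pde3b is below all 17 lines in each of the 3.

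Among genes with a lower change, Pde3b, the phosphodiesterase through which insulin lowers cyclic AMP in adipocytes, was at 22.3 CPM in C6, 26.1 in D5 and 25.1 in D2 undifferentiated against 0.0442 to 9.1 CPM, and at 39.2, 70.8 and 248 CPM on day 8 against 140 to 516 CPM. The 3 lines thus started above all 17, and on day 8 D2 was within their range while C6 and D5 were below it. The log2 changes were 0.81, 1.44 and 3.30 against 4.31 to 11.49, with a difference of −5.66 (SE 1.02) that was −5.12 and not called without C6. Slc2a4, the insulin-responsive glucose transporter GLUT4, was at 1.35, 1.31 and 0.425 CPM against 0 to 0.474 CPM undifferentiated, with C6 and D5 above all 17 lines and D2 inside their range, and at 9.26, 75.5 and 252 CPM against 166 to 440 CPM on day 8. Its fitted difference, −5.04 (SE 0.85), depends on the small count added to genes near 0, and it was −3.52 and not called without C6. Cebpb, an early adipogenic factor, had a lower change by −1.87, −1.96 without C6, where it was not called.

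C6 and D5 were picked on the change of the adipocyte list between the stages, so the calls by list are descriptions. The lower calls of the adipocyte list follow from that choice, and lists that changed alongside it are not independent of it. By list, the change was lower for 6 of 24 adipocyte, 6 of 28 adipogenic transcription factor and 5 of 19 thermogenic genes. It was also lower for 9 of 19 fatty acid oxidation and 5 of 27 respiratory chain genes, and higher for 0 genes of each of these lists. Over all genes it was lower for 6.63% and higher for 4.85%. It was higher for 5 of 27 progenitor surface genes and lower for 0, and higher for 5 of 41 Wnt genes and lower for 1. Of 20 genes of the p53 pathway and the inhibitors of the cell cycle 0 had a higher and 5 a lower change, among them Cdkn1a (p21) by −1.52, which was −1.66 and not called without C6. Of 56 patterning genes 1 had a higher change by this call and 0 a lower one.

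Markers of other cell types were summed in each library, since a culture could hold more than 1 cell type. The endothelial list summed to 251 CPM in C6, 332 in D5 and 114 in D2 undifferentiated against 15.2 to 139 CPM, which was mostly Eng, and to 295, 306 and 104 CPM on day 8 against 9.99 to 62.8 CPM. Of its genes, Cldn5, Robo4 and Sox17 were at 0 in the 3 lines at both stages, while 2 of 7 tested genes were called higher undifferentiated and 2 of 8 on day 8, with 0 lower. The Schwann and neural crest list summed to 319, 390 and 344 CPM undifferentiated against 144 to 484 CPM and to 311, 417 and 131 CPM on day 8 against 47.7 to 183 CPM, with Sox10, Foxd3 and Cdh19 at 0 undifferentiated. Of 9 genes of this list, 5 lay above all 17 lines in both C6 and D5 and 2 in D2 undifferentiated, and 5, 6 and 1 on day 8. Over all genes the shares above were 13.5%, 11.3% and 8.58% undifferentiated and 20.9%, 17.2% and 4.88% on day 8. By the calls, 3 of 6 genes of the list were higher undifferentiated and 5 of 10 on day 8, with 0 lower. Of all tested genes 7.08% were called higher undifferentiated and 12.7% on day 8. The skeletal muscle list summed to 12.4, 15.3 and 18 CPM undifferentiated against 4.76 to 27.8 CPM, with Myf5 and Pax7 at 0. On day 8 it summed to 7.72, 9.64 and 19.6 CPM against 12 to 355 CPM, so C6 and D5 lay below all 17 lines. The immune list summed to 15.5, 13.2 and 13.3 CPM on day 8 against 4.61 to 16.5 CPM, with Emr1, Cd3e, Tyrobp and C1qa at 0 at both stages. The contractile list summed to 4337, 3541 and 2911 CPM on day 8 against 1305 to 2518 CPM, and the progenitor surface list to 5730, 5063 and 3447 CPM against 1052 to 4646 CPM. The mesothelial list summed to 28.3, 81.6 and 78.2 CPM undifferentiated against 5.19 to 381 CPM and to 81.5, 141 and 79.8 CPM on day 8 against 2.3 to 87.4 CPM, median 15.8. Several defining genes of the endothelial, muscle and immune lists were thus at 0. On day 8 the endothelial and contractile sums of all 3 lines, the Schwann and progenitor sums of C6 and D5, and the mesothelial sum of D5 lay above all 17 lines. The part of these levels in the day 8 differences was not tested.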

How the data were processed

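Counts per gene were analysed from 40 libraries of poly(A)-selected RNA made with a strand-marking kit and sequenced as read pairs, per the labels' protocols. Per the submitters' processing notes, the authors used STAR, HTSeq and the mouse build mm9, and the deposited values are raw counts. For tool versions, annotation and strand setting nothing was stated in the labels used here, so overlapping antisense genes may not be separated. The undifferentiated files list 29955 symbols and the day 8 files 29915. Of the 29912 shared, 125 that differ from another only in letter case were left out and 29787 kept, 6941 of them without a count in any library. HTSeq's tallies of reads without a gene stayed out of library sizes, and in all day 8 files the low-quality and unaligned tallies were 0.

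Counts were fitted in R 4.3.3 with edgeR 4.0.16 (quasi-likelihood F-test, filterByExpr with a minimum count of 10, TMM scaling, Benjamini-Hochberg over all tested genes, threshold 0.05). Each stage was fitted alone, and the change per line over all 40 libraries with the line as a block. The line pairs the 2 stages because each culture label recurs at both; deviations from the stage mean correlated between a line's own libraries at 0.081 to 0.499, and 14 of 20 lines matched their own best. Printed levels are TMM-scaled CPM over all 40 libraries, and log2 CPM uses a prior count of 2. Alternatives were limma 3.58.1 (voom), DESeq2 1.42.0, RLE scaling, no count filter, leaving out each of the 3 lines, comparison lines with the letters C and D only, and all 40 libraries in 1 fit. The fits were tested on simulated data.

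The lines, gene lists and tests were chosen with earlier results of these data known. Named genes are the called genes with the largest differences among those with the lines beyond all 17 and at least 5 CPM, up to 4 members per list, the 5 markers, and genes in which 1 of the 3 lines is the extreme of all 20. Scd1, Fasn, Plin1, Fabp4, Gpd1 and other list members named beside them were chosen after their values were seen. Promoter sequences are RefSeq's.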

Additional observations from a re-analysis of the deposited data

Results flagged for a closer look

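The change from undifferentiated to day 8 differed between C6, D5 and D2 and the 17 lines by a test of that difference, with the changes of all 3 lines beyond those of all 17, for the 12 genes given here. The lines were picked on these libraries, so the differences are descriptions. Every call except that of Cd34 was lost without C6 and without D5.

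Differences towards a higher change were largest for Col6a6, a collagen VI chain, at 5.49 on the log2 scale. Col6a6 had 1 read in the 3 undifferentiated libraries together, so this fitted value depends on the small count added to genes near 0. On day 8 it was at 17.9 CPM in C6, 20.1 in D5 and 12.9 in D2 against 0.0477 to 6.29 CPM. Capn6, a calpain without protease activity, differed by 4.42, and Tnxb, a matrix glycoprotein, by 4.34. Cd34 differed by 4.22, Gdf10 by 3.96 and the chemokine Ccl5 by 3.79, which limma-voom did not call. For Gdf10 the log2 changes were 4.68, 5.10 and 3.60 against −1.65 to 2.43.

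Differences towards a lower change were −5.66 for Pde3b, −5.53 for Vat1l, −5.04 for Slc2a4, −4.34 for Cd83, −4.16 for Rufy4 and −3.80 for Tmem179. Vat1l changed by −4.84, −2.71 and −3.23 on the log2 scale in C6, D5 and D2 and by −2.28 to 3.73 in the 17 lines. Cd83, a surface protein of activated immune cells, changed by 1.64, 0.59 and 2.63 against 3.75 to 7.10. The change of Cd83 was thus smaller in the 3 lines than in all 17.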

How the results depend on the processing

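Counts of called genes moved by over 1.5 times mainly when C6 or D5 was left out. Leaving out 1 of the 3 lines gave 230 to 964 genes higher and 188 to 1039 lower undifferentiated, 422 to 2305 higher and 90 to 2675 lower on day 8, and 1 to 1158 higher and 8 to 1520 lower for the change per line. For C6 and D5 without D2, leaving out 1 of them gave 100 to 222 higher and 64 to 169 lower. Without the replicate block, the change per line gave 194 higher and 389 lower. With only the other lines of letters C and D, the day 8 counts were 781 and 370 and those of the change 47 and 149. DESeq2 called 1537 genes with a higher change. With all 40 libraries in 1 fit, 568 were lower undifferentiated for the 3 lines and 606 for C6 and D5. The share of calls that were higher on day 8 was 50% and became 82.4% without C6, 78.6% without D5 and 67.9% with letters C and D only. RLE scaling kept the calls of all 59 undifferentiated and all 82 day 8 named genes, and no named gene reversed. On day 8 the calls of 44 of the 82 held with letters C and D only. The blocked fit is the main one for the change, and leaving out the block lost 28 of its 49 named calls. The causes were not tested. With 3 lines, 2 of them nearly alike, the spread within the group is poorly known, and genes near 3 counts give no firm fold.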

Other observations

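Each of the 3 lines, like each of the 17, had genes in which it was the extreme of all 20 lines with a gap of at least 1 on the log2 scale to the next line. On day 8, C6 was the lowest line for 347 genes and the highest for 51, D5 for 15 and 40, and D2 for 5 and 5. Undifferentiated, C6 was lowest for 23 and highest for 47, D5 for 9 and 17, and D2 for 12 and 22. Each of the 17 lines was lowest for 1 to 84 and highest for 0 to 78 genes on day 8. Undifferentiated the 17 were lowest for 1 to 97 and highest for 0 to 87. Only the 347 genes of C6 on day 8 thus lay outside the counts of the 17 lines. These genes were picked for their extreme values and carry no test.

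In D2, undifferentiated Sim1, a transcription factor of the nervous system, was at 5.01 CPM against 0.219 in the next line, and Pgf, a placental growth factor, at 7.86 CPM against 2.5. Ulbp1, a ligand of an immune receptor, was at 59.2 CPM against 19.4. In D5, undifferentiated Hoxa11 was at 5.38 CPM against 0.714 in C6, and day 8 Cxcl13, a chemokine, at 16.4 CPM against 2.91. Midkine, Mdk, was at 6.92 CPM against 0.975. In C6, day 8 Thrsp, a lipogenic gene, was at 3.36 CPM against 106 in the next lowest line, and Klb, the co-receptor for FGF21, at 1.06 CPM against 22.1. Rspo3, which enhances Wnt signalling, was at 55.5 CPM in C6 against 21.6 in C5. D5 and C6, the most alike pair by correlation but not by the chi-square distance of their counts, thus differed several-fold in single genes, while D2 had few such genes on day 8.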
